A study of Rattus norvegicus with 4 samples.

Results

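A set of 8 genes that the tumour suppressor p53 switches on, or that halt cell growth, were followed in rat neural stem/progenitor cells: Cdkn1a, Ccng1, Mdm2, Bax, Btg2, Gadd45a, Phlda3 and Bbc3. They were taken by symbol from the deposited gene tables, and all 8 were found among 16881 symbols, each with 1 entry per table. Wild-type cells, the genotype in the labels for every library, were grown on 2 platforms, PUCL@CNT1 or bare PUCL; the study's title describes PUCL@CNT as an electroconductive nanohybrid scaffold. There were 4 groups of 1 library each: PUCL@CNT1 and PUCL after 1.5 d in B-27 Plus neuronal medium (differentiation medium), and PUCL@CNT1 and PUCL after the 24 h in knockout DMEM/F12 with StemPro Neural Supplement (maintenance medium) that all cells first received. Medium and time in culture changed together, so their shares in any difference cannot be told apart.

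As background, p53 is a transcription factor that DNA damage and other stresses stabilise, mainly by freeing its protein from the ubiquitin ligase Mdm2. It then switches on genes that stop the cell cycle, repair DNA or start cell death, and it switches on Mdm2 as its own brake. In neural stem cells p53 and its target Cdkn1a are known for limiting self-renewal, and several of these genes, such as Btg2 and Gadd45a, also answer to signals other than p53.

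The values were counts from 3′-end (QuantSeq) libraries, 6855984 and 6580894 in all on PUCL@CNT1 and PUCL in differentiation medium, and 6035848 and 6502918 on PUCL@CNT1 and PUCL in maintenance medium. Levels are given as CPM, the count as a share of the library's total in units of 1e6 counts, with the total adjusted by edgeR's TMM factor. Ribosomal RNA entries held 8.46% and 13.4% of counts on PUCL@CNT1 and PUCL in differentiation medium, against 9.03% and 11.3% in maintenance medium. The progenitor markers Nes, Sox2, Vim and Fabp7 had at least 2363 counts in every library, while Msi1 had 0 in all and Hes5 at most 2. Of 8 microglia markers 7 had 0 counts in every library, and the eighth, Cd68, had at most 47 counts (7.27 CPM). Summed astrocyte markers were at 481 CPM on PUCL@CNT1 and 993 CPM on PUCL in differentiation medium, against 502 and 520.4 CPM in maintenance medium. S100b made up most of that difference, at 114 and 609 CPM in differentiation medium against 85.5 and 104 CPM in maintenance medium, and the other 6 astrocyte markers summed to 367 and 383 CPM against 417 and 417 CPM. Summed neuron markers were at 158 and 168 CPM in differentiation medium, against 253 and 349 CPM in maintenance medium. Oligodendrocyte lineage markers summed to 1405 and 1435 CPM in differentiation medium, against 760 and 912 CPM in maintenance medium. For mural and fibroblast markers the sums were 374 and 501 CPM, against 763 and 1084 CPM. Gene by gene these markers did not follow their sum. With counts under 3 raised to 3, their median log2 ratio of PUCL@CNT1 to PUCL was 3.39 in differentiation and -0.49 in maintenance medium (5 tested of 8). Between media it was -0.09 on PUCL@CNT1 and -1.71 on PUCL. The part of these differences in the results that follow was not tested, and in such bulk libraries fewer cells of a type cannot be told apart from less RNA per cell.

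All 8 genes had their highest level in the library from PUCL@CNT1 in differentiation medium. Of the 10516 genes tested, 26.7% had their highest level in that library. The 8 genes were chosen with earlier results of these data known. Shares of all genes, here and below, therefore describe the set and do not test it. Summed over the 8 genes, the level was 2185 CPM on PUCL@CNT1 and 1083 CPM on PUCL in differentiation medium, against 1177 CPM on PUCL@CNT1 and 940.2 CPM on PUCL in maintenance medium. The lowest library was PUCL in maintenance medium for Cdkn1a, Ccng1, Bax, Gadd45a and Bbc3, and PUCL in differentiation medium for Mdm2, Btg2 and Phlda3. With 1 library per group there was no replicate spread, so each interval below is a 95% interval of a ratio of counts and covers counting error only.

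**Figure D1:**
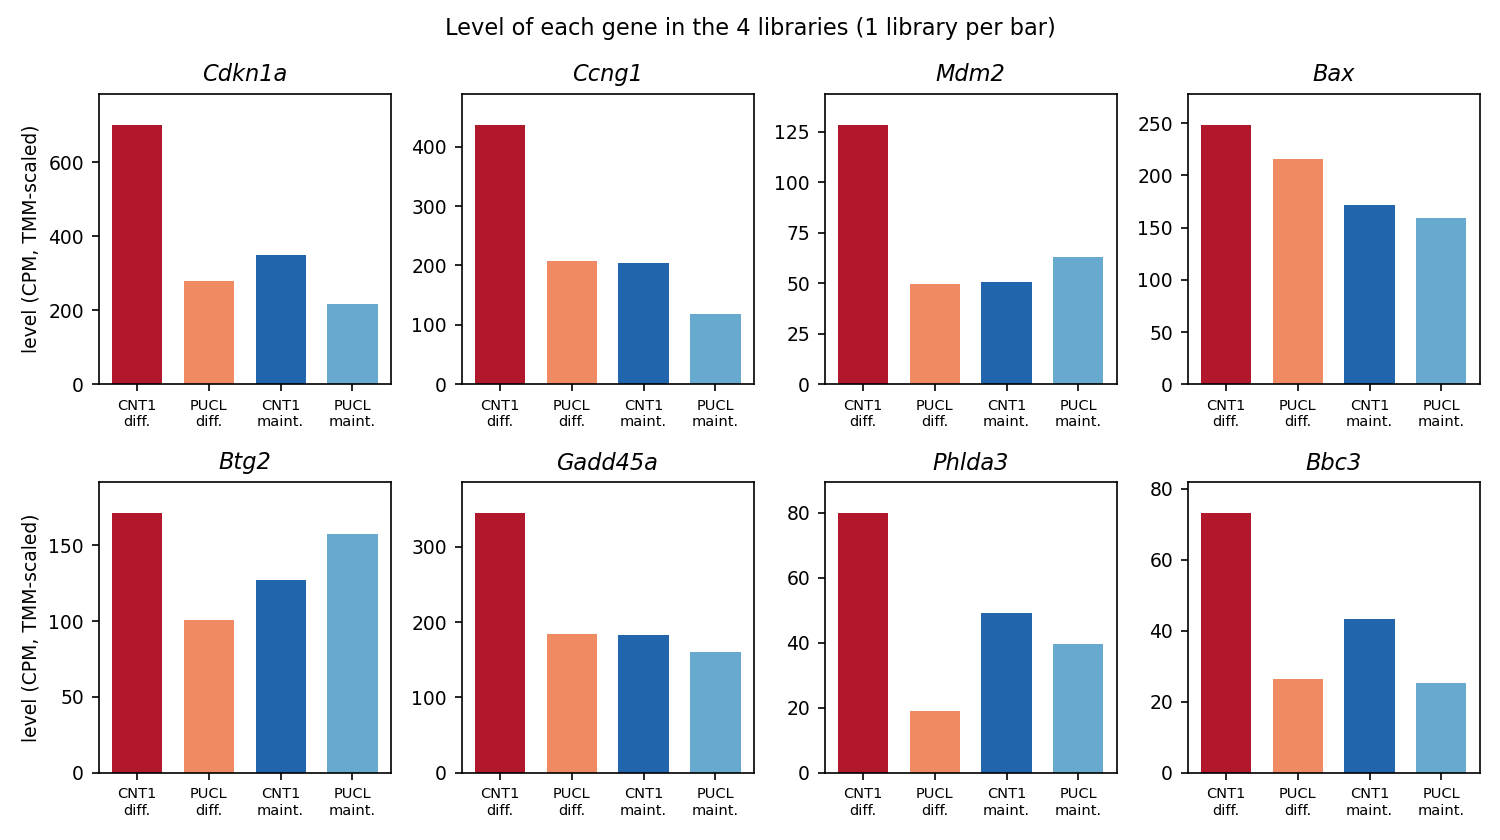
Level of each of the 8 genes (CPM, TMM-scaled, each y axis starting at 0) in the 4 libraries, 1 library per bar, with CNT1 for PUCL@CNT1, diff. for differentiation medium and maint. for maintenance medium. The left bar, PUCL@CNT1 in differentiation medium, is the tallest in every panel, from 73.1 CPM for Bbc3 to 702 CPM for Cdkn1a.

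Cdkn1a encodes p21, the inhibitor of cyclin-dependent kinases through which p53 stops the cell cycle. It stood at 702 CPM (4664 counts) on PUCL@CNT1 and 280.0 CPM (1810) on PUCL in differentiation medium, against 348 CPM (2174) on PUCL@CNT1 and 216 CPM (1422) on PUCL in maintenance medium. Both PUCL@CNT1 libraries lay above both PUCL libraries, while the levels of the 2 media overlapped. Differentiation over maintenance medium was 2.02-fold on PUCL@CNT1 (interval 1.92 to 2.12) and 1.30-fold on PUCL (1.21 to 1.39). PUCL@CNT1 over PUCL was 2.51-fold in differentiation medium (2.37 to 2.65) and 1.61-fold in maintenance medium (1.51 to 1.73).

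Ccng1 encodes cyclin G1, a p53-induced cyclin that brings the phosphatase PP2A to Mdm2. It stood at 437 CPM (2905 counts) on PUCL@CNT1 and 207 CPM (1338) on PUCL in differentiation medium, against 204 CPM (1276) on PUCL@CNT1 and 119 CPM (785) on PUCL in maintenance medium. The middle pair, PUCL in differentiation medium and PUCL@CNT1 in maintenance medium, were nearly level, and the other libraries lay well above and well below them. Differentiation over maintenance medium was 2.14-fold on PUCL@CNT1 (interval 2.00 to 2.29) and 1.74-fold on PUCL (1.59 to 1.90). PUCL@CNT1 over PUCL was 2.11-fold in differentiation medium (1.98 to 2.25) and 1.72-fold in maintenance medium (1.57 to 1.88).

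Gadd45a, a small stress protein that binds p21 and PCNA and acts at the G2 checkpoint, stood apart in 1 library. It was at 345 CPM (2293 counts) on PUCL@CNT1 and 185 CPM (1196) on PUCL in differentiation medium, against 184 CPM (1147) on PUCL@CNT1 and 161 CPM (1062) on PUCL in maintenance medium. The other 3 libraries differed by at most 1.15-fold, and PUCL@CNT1 in differentiation medium was 1.86-fold above the next (interval 1.74 to 2.00). In the GRCr8 annotation Gadd45a overlaps the long non-coding RNA LOC100912188, and whether its reads were counted with Gadd45a was not tested.

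Btg2 encodes an antiproliferative protein that promotes mRNA deadenylation and marks neurogenic divisions of neural progenitors in mice. It was at 171 CPM (1138 counts) on PUCL@CNT1 and 100.5 CPM (650) on PUCL in differentiation medium, against 127 CPM (793) on PUCL@CNT1 and 158 CPM (1039) on PUCL in maintenance medium. The 2 platforms thus stood in opposite order in the 2 media. The highest library was 1.09-fold above the next, PUCL in maintenance medium, with an interval of 0.998 to 1.18, so these 2 did not differ beyond counting error.

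Mdm2, the ligase that marks p53 for degradation and is itself a p53 target, also changed order between media. It was at 129 CPM (855 counts) on PUCL@CNT1 and 49.6 CPM (321) on PUCL in differentiation medium, against 50.7 CPM (317) on PUCL@CNT1 and 63.1 CPM (416) on PUCL in maintenance medium. Differentiation over maintenance medium was 2.53-fold on PUCL@CNT1 (interval 2.23 to 2.89) and 0.787-fold on PUCL (0.678 to 0.913). PUCL@CNT1 over PUCL was 2.59-fold in differentiation medium (2.28 to 2.95) and 0.805-fold in maintenance medium (0.693 to 0.933).

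Phlda3 encodes a small membrane-binding protein that competes with the survival kinase Akt for phosphoinositides, and it had the widest range of the 8 genes. It was at 79.9 CPM (531 counts) on PUCL@CNT1 and 19.0 CPM (123) on PUCL in differentiation medium, against 49.1 CPM (307) on PUCL@CNT1 and 39.6 CPM (261) on PUCL in maintenance medium. PUCL@CNT1 over PUCL was 4.19-fold in differentiation medium (interval 3.44 to 5.15) and 1.24-fold in maintenance medium (1.05 to 1.47). On PUCL its level in differentiation medium was 0.482-fold that in maintenance medium (0.385 to 0.598), while on PUCL@CNT1 the ratio was 1.62-fold (1.41 to 1.88). The pseudogene Rpl11-ps12 overlaps Phlda3 in the GRCr8 annotation, which leaves the same limit as for Gadd45a.

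Bax and Bbc3, whose proteins (Bax and Puma) promote cell death through the mitochondria, behaved unlike each other. Bbc3 was at 73.1 CPM (486 counts) on PUCL@CNT1 and 26.3 CPM (170) on PUCL in differentiation medium, against 43.4 CPM (271) on PUCL@CNT1 and 25.2 CPM (166) on PUCL in maintenance medium. It stood higher on PUCL@CNT1 in both media, by 2.78-fold in differentiation medium (interval 2.33 to 3.33) and 1.72-fold in maintenance medium (1.42 to 2.10). Its ratio between media on PUCL was 1.05, with an interval (0.839 to 1.30) that spans equality.

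Bax was at 248 CPM (1652 counts) on PUCL@CNT1 and 216 CPM (1396) on PUCL in differentiation medium, against 171 CPM (1070) on PUCL@CNT1 and 159 CPM (1050) on PUCL in maintenance medium. Both libraries of differentiation medium lay above both of maintenance medium, by 1.45-fold on PUCL@CNT1 (interval 1.34 to 1.57) and 1.36-fold on PUCL (1.25 to 1.47). The 2 platforms were close, at 1.15-fold in differentiation medium (1.07 to 1.24) and 1.08-fold in maintenance medium (0.987 to 1.17), and the interval for maintenance medium spanned equality.

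A rule of size was used to read these pairs against all genes: a gene counted as higher or lower where its ratio reached 2-fold and the bound of its interval nearer to equality lay past 1.5-fold. In differentiation medium 5 of the 8 genes were higher on PUCL@CNT1 by this rule (Cdkn1a, Ccng1, Mdm2, Phlda3 and Bbc3), against 15.2% of all genes tested, and none was lower. In maintenance medium 0 of 8 were higher, against 12.1% of all genes. Between media, 3 of 8 were higher in differentiation medium on PUCL@CNT1 (Cdkn1a, Ccng1 and Mdm2), against 16.5% of all genes; under total counts Cdkn1a (log2 0.92) was under 2-fold and 2 of 8 passed. On PUCL 0 of 8 were higher, against 16.0% of all genes, and Phlda3 alone was lower, against 15.2%. Both comparisons with genes called higher share the PUCL@CNT1 differentiation library, so they are not separate evidence.

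**Figure D2:**
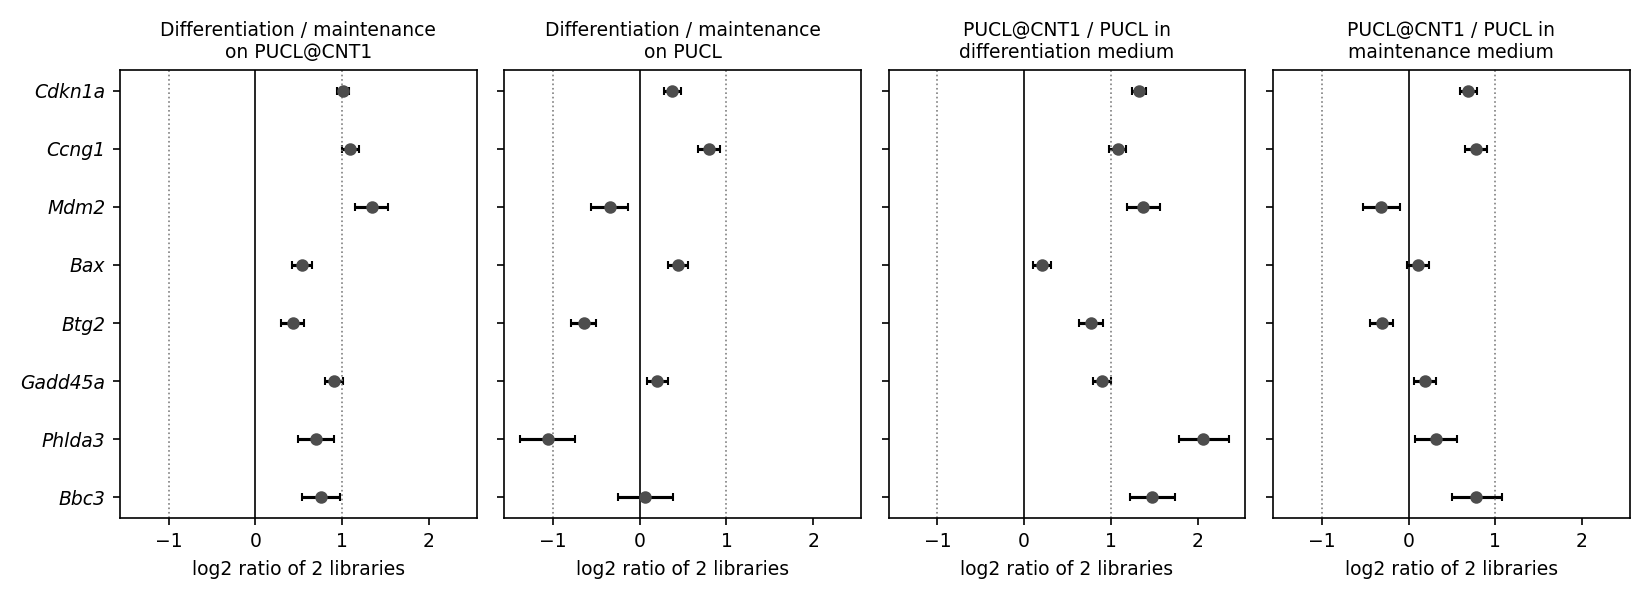
Log2 ratio of 2 libraries for the 8 genes in the 4 pairs, with exact 95% binomial counting intervals as bars; dotted lines mark 2-fold. All 8 points lie right of 0 in the panels for medium on PUCL@CNT1 and for platform in differentiation medium, which share the PUCL@CNT1 differentiation library; 5 of 8 do for medium on PUCL and 6 of 8 for platform in maintenance medium.

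The median log2 ratio of the 8 genes was 0.83 for medium on PUCL@CNT1 and 0.13 on PUCL, against -0.02 and 0.03 over all genes tested. For platform it was 1.2 in differentiation medium and 0.25 in maintenance medium, against -0.03 and 0.03 over all genes. Ratios were above 0 for medium on both platforms in 5 of the 8 genes, against 29.6% of all genes, and for platform in both media in 6 of 8, against 27.2%.

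The 8 genes also varied in how far the platforms differed in their response to the medium. The medium ratio on PUCL@CNT1 divided by that on PUCL was 3.37 for Phlda3 (95% counting interval 2.61 to 4.36), 3.22 for Mdm2 (2.65 to 3.91) and 2.11 for Btg2 (1.85 to 2.41). These 3 of 8 were past the size rule, as were 15.4% of all genes tested in the same direction. It was 1.64 for Gadd45a (1.47 to 1.82), 1.61 for Bbc3 (1.24 to 2.09) and 1.55 for Cdkn1a (1.42 to 1.69). Ccng1 (1.23, 1.10 to 1.37) and Bax (1.07, 0.957 to 1.195) came closest to the same response on both platforms. With 1 library in each of the 4 groups, this difference could not be tested.

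Across the 4 libraries, Cdkn1a and Ccng1 passed the test for both terms of an additive edgeR quasi-likelihood fit, which fits 1 medium difference for both platforms and 1 platform difference for both media. On PUCL@CNT1 relative to PUCL, Cdkn1a rose by 1.01 (fitted log2, with SE 0.21 and adjusted p 0.0056) and Ccng1 by 0.93 (SE 0.24, adjusted p 0.0459). In differentiation relative to maintenance medium, Ccng1 rose by 0.95 (SE 0.24, adjusted p 0.0105) and Cdkn1a by 0.70 (SE 0.21, adjusted p 0.0498, just inside the threshold of 0.05). So 2 of 8 genes rose for platform, against 0.209% of all genes tested, and 2 of 8 rose for medium, against 1.8%. Because the 8 genes were chosen with earlier results of these data known, these shares are no test of the set. Both were higher on PUCL@CNT1 in 2 of 2 media and in differentiation medium on 2 of 2 platforms. The residual of this fit is the departure from 1 common difference, not spread between repeat libraries. That departure was 1.55-fold for Cdkn1a (counting interval 1.42 to 1.69) and 1.23-fold for Ccng1 (1.10 to 1.37).

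The other 6 genes were outside the threshold for both terms. Fitted platform differences were 1.18 for Phlda3 (SE 0.46, adjusted p 0.447), 1.13 for Bbc3 (SE 0.47, adjusted p 0.499), 0.55 for Gadd45a (SE 0.25, adjusted p 0.615), 0.53 for Mdm2 (SE 0.38), 0.23 for Btg2 (SE 0.29) and 0.15 for Bax (SE 0.25). Fitted medium differences were 0.56 for Gadd45a (SE 0.25, adjusted p 0.306), 0.50 for Mdm2 (SE 0.38), 0.49 for Bax (SE 0.25, adjusted p 0.423), 0.41 for Bbc3 (SE 0.46), -0.11 for Btg2 (SE 0.29) and -0.16 for Phlda3 (SE 0.46). The fit leaves 1 residual degree of freedom against 87.2 prior ones, so the standard errors rest mostly on the spread of other genes. Gadd45a, high in 1 library, and Bax, with like medium ratios on both platforms, had the same SE of 0.25 for medium. With 1 library left out at a time (and the other term with it), the fitted value of Gadd45a ran from 0.10 to 1.00 for medium and from 0.10 to 0.99 for platform, lowest without PUCL@CNT1 in differentiation medium; its medium value was a call without PUCL in differentiation medium (adjusted p 0.0467).

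**Figure D3:**
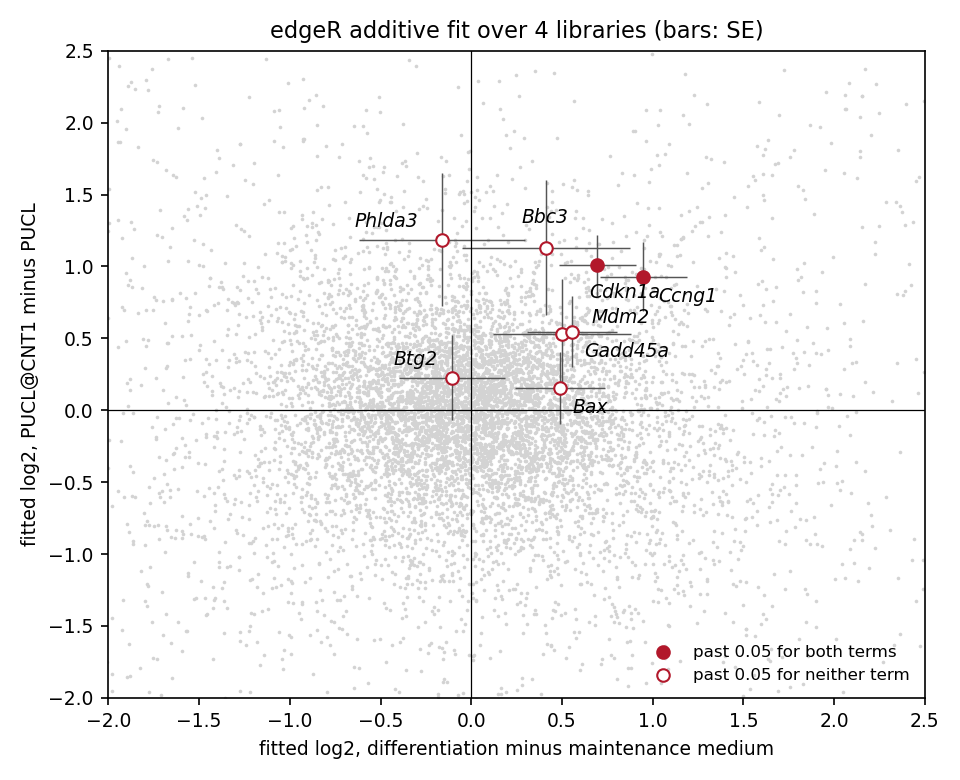
Fitted log2 difference between media (x axis) and between platforms (y axis) for the 8 genes, with bars of 1 standard error, over all genes tested (grey; points beyond the axes are not drawn). Cdkn1a (0.70, 1.01) and Ccng1 (0.95, 0.93), filled, passed the threshold for both terms, and the open points for neither.

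The calls depended on the fit. In 8 other fits of all 4 libraries, Ccng1 kept its medium call in 7 (adjusted p 0.00225 to 0.0627) and Cdkn1a in 1, limma-voom (0.00637 to 0.163). For platform, Cdkn1a kept its call in 6 of 8 (adjusted p 6.21e-05 to 0.590) and Ccng1 in 3 of 8 (0.00717 to 1.00), with fitted platform values of both between 0.92 and 1.08 in all 8. With 3 libraries the other term had to be left out as well. Without PUCL@CNT1 in differentiation medium the fitted medium difference was -0.02 for Cdkn1a and 0.35 for Ccng1, and the platform difference 0.50 and 0.34, with no call. Without PUCL@CNT1 in maintenance medium the medium difference was 1.19 and 1.43 with no call, and the platform difference 1.50 for Cdkn1a (adjusted p 0.0241, a call) and 1.42 for Ccng1 (no call). Without PUCL in maintenance medium there was no call (medium 0.50 and 0.66, platform 0.91 and 0.63). Without PUCL in differentiation medium both medium calls held (1.32, adjusted p 0.00151, and 1.43, 0.00157) and neither platform call did (1.29 and 1.44).

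RefSeq promoter windows (GRCr8, 250 bases before to 50 after the gene start that the table uses) were matched for 6 of the 8 genes, all but Bax and Bbc3, and searched for the p53 consensus half-site and for a full site of 2 half-sites 0 to 13 bases apart with at most 2 mismatches; the half-site reads the same on both strands. A half-site was in 3 of these 6 windows (Cdkn1a, Ccng1 and Gadd45a), and in 7.98% of all 33469 windows of that length. The same 3 held a full site, against 1.95% of all windows. They are shown because they include both genes that passed the edgeR test, with both half-sites of the full site in capitals, mismatches included. In Cdkn1a (chr20:7150682-7150981, plus strand) the full site runs from -201 to -182 relative to the gene start, with 1 mismatch and no spacer. In Ccng1 (chr10:25684827-25685126, minus strand) it runs from -247 to -223 with 2 mismatches and a spacer of 5 bases. In Gadd45a (chr4:97486750-97487049, minus strand) it runs from -69 to -39 with 1 mismatch and a spacer of 11 bases. For Cdkn1a the start that this table uses lies 112 bases inside the outer bound of the gene in RefSeq's gene table, and for Mdm2 966 bases inside it, while for the other 4 genes the starts are the same; positions for Cdkn1a and the lack of a match for Mdm2 hold for these windows only. A match describes these letters and is not evidence of binding, and the windows of Mdm2, Btg2 and Phlda3 held no match.
Cdkn1a: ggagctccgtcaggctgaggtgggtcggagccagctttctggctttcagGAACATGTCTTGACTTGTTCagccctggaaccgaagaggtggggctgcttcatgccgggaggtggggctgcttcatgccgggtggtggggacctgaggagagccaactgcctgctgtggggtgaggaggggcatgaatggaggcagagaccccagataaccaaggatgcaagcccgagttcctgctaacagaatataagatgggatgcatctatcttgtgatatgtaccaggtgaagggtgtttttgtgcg
Ccng1: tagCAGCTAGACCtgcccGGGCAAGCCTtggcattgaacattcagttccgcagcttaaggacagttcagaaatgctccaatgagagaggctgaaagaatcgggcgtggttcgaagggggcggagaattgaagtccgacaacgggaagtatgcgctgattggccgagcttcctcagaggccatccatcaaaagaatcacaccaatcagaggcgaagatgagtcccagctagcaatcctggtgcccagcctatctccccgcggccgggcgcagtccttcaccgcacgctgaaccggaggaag
Gadd45a: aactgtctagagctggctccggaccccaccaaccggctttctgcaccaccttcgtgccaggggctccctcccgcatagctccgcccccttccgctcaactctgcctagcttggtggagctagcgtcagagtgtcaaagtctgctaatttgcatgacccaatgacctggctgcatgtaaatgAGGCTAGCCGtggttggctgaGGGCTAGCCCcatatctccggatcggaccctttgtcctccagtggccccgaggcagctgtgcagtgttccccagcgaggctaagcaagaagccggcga

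Wider genes of the pathway, in 5 lists by role, showed whether the pattern of the 8 genes extended to them. Mdm4, which binds and restrains p53, had 79 and 105 counts on PUCL@CNT1 and PUCL in differentiation medium, against 82 and 79 counts in maintenance medium. Among regulators of p53 (11 tested of 14), 0 passed for either term in edgeR, DESeq2 or limma-voom, with 3 for medium and 0 for platform at an unadjusted edgeR p under 0.05, against 12.1% and 6.95% of all genes tested. Only 1 of the 11 (9.09%) had its highest level in the PUCL@CNT1 differentiation library. It was Cdkn2a, picked after its values were seen. Cdkn2a had 447 and 366 counts on PUCL@CNT1 and PUCL in differentiation medium, against 213 and 173 counts in maintenance medium (edgeR adjusted p 0.254 for medium). The median log2 ratio of the 11 regulators was -0.69 for medium on PUCL@CNT1 and -0.45 for platform in differentiation medium. By the size rule 0 were higher and 3 lower in each: the checkpoint kinase Chek1 and the ubiquitin ligase Rchy1 in both, the DNA damage kinase Atm for medium and the checkpoint kinase Chek2 for platform, all outside the rule for named genes and picked after their values were seen. Over all genes 15.6% were lower for platform in differentiation medium and 14.5% for medium on PUCL@CNT1.

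Other p53 targets (35 tested of 45) did not share the pattern gene by gene. Of the 35, 10 (28.6%) were highest in the PUCL@CNT1 differentiation library. The list's sum did stand highest in that library, at 3183.4 CPM against at most 2484.8 CPM in the others. The list's median log2 platform ratio in differentiation medium was -0.02, with 4 higher and 6 lower by the size rule (15.2% and 15.6% of all genes). Some of these calls rest on few counts on PUCL@CNT1 and PUCL. Among the lower were Sesn1 (26 and 82), Ddb2 (7 and 34), Polk (18 and 58) and Polh (0 and 17). Among the higher was Dcxr (11 and 0). These genes were picked after their values were seen. The list's median medium ratio on PUCL@CNT1 was 0.04, with 5 higher and 5 lower (16.5% and 14.5% of all genes). For platform, Rps27l passed in DESeq2 and limma-voom. At an unadjusted edgeR p under 0.05 there were 7 for medium and 6 for platform, against 12.1% and 6.95% of all genes. In edgeR with adjustment 1 rose for medium and 0 for platform, against 1.8% and 0.209% of all genes. The gene that rose was Ephx1, the microsomal epoxide hydrolase, at 547 and 480 counts on PUCL@CNT1 and PUCL in differentiation medium, against 57 and 78 counts in maintenance medium (fitted log2 2.91, SE 0.48, adjusted p 1.48e-05). It was level between platforms, unlike Cdkn1a. Rps27l, picked after its values were seen, was the largest part of the list's sum. It held 1699 and 973 CPM on PUCL@CNT1 and PUCL in differentiation medium. It held 1118 and 908 CPM in maintenance medium. Sums of the lists described below were also highest on PUCL@CNT1 in differentiation medium (1393, 4855 and 2302 CPM, against at most 1148, 4340 and 2070 CPM elsewhere). The second sum, of G1 cyclins and CDKs, was mostly Ccnd1. Ccnd1 held 3712 and 1898 CPM on PUCL@CNT1 and PUCL in differentiation medium, against 2636 and 2845 CPM in maintenance medium. Gene by gene that list did not share the pattern, with 2 of 17 (11.8%) highest in the PUCL@CNT1 differentiation library. Regulators of p53 summed to 915 CPM on PUCL@CNT1 in differentiation medium, against 1048 CPM on PUCL@CNT1 in maintenance medium.

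By the size rule, Ephx1, Fas, Rrm2b and Sesn3 were higher in differentiation medium on both platforms and Tigar was lower on both; Sesn3 and Tigar are outside the rule for named genes and were picked after their values were seen. Fas, the death receptor, had 134 and 176 counts on PUCL@CNT1 and PUCL in differentiation medium, against 11 and 47 counts in maintenance medium (adjusted p 0.165). Rrm2b, a ribonucleotide reductase subunit for DNA repair, had 26 and 35 counts against 0 in both libraries of maintenance medium, which makes it at least 8.14-fold higher for PUCL@CNT1 and at least 11.9-fold higher for PUCL with a floor of 3 counts per library (adjusted p 0.688). Between platforms, Sertad1, which binds CDK4, was higher on PUCL@CNT1 in both media (3.72-fold in differentiation and 2.15-fold in maintenance medium, adjusted p 0.246). Pltp, a phospholipid transfer protein, was lower in both (0.453-fold and 0.346-fold, adjusted p 0.714). Zmat3, an RNA-binding p53 target chosen after its values were seen, had 846 and 370 counts on PUCL@CNT1 and PUCL in differentiation medium, against 604 and 515 counts in maintenance medium.

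Other inhibitors of the cell cycle and growth arrest genes (18 tested of 20) had 6 higher and 3 lower on PUCL@CNT1 in differentiation medium by the size rule, against 15.2% and 15.6% of all genes, with a median log2 of 0.34; 5 of 18 (27.8%) were highest in that library. In edgeR, DESeq2 and limma-voom 0 passed for either term (0 for medium and 5 for platform at an unadjusted edgeR p under 0.05, against 12.1% and 6.95% of all genes). Rb1, the retinoblastoma protein that p21 keeps active, was higher on PUCL@CNT1 in both media (3.26-fold in differentiation and 2.18-fold in maintenance medium, adjusted p 0.527). Its relative Rbl1 had 2 and 0 counts on PUCL@CNT1 in differentiation and maintenance medium, against 96 and 88 counts on PUCL. It was 0.0252-fold in differentiation medium (interval 0.00242 to 0.0752) and at least 27.8-fold lower in maintenance medium (adjusted p 0.251). Cdkn2c, an inhibitor of CDK4 and CDK6, was lower on PUCL@CNT1 (0.344-fold and 0.465-fold, adjusted p 0.449), so inhibitors of the cell cycle did not stand in 1 direction.

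A list of G1 cyclins, their kinases and other genes of the step into S phase (17 tested of 19) also held E2F factors, Pcna, Cdc25a, Myc, Skp2 and Cks1b. Of the 17, 0 were higher and 2 lower (Ccne2 and Cdk2, picked here after its value was seen) on PUCL@CNT1 in differentiation medium by the size rule, against 15.2% and 15.6% of all genes, with a median log2 of -0.42. No gene passed in edgeR or DESeq2 for either term, and Ccnd1 passed for platform in limma-voom. At an unadjusted edgeR p under 0.05 there were 1 for medium and 4 for platform, against 12.1% and 6.95% of all genes. Ccne2, a cyclin of S phase entry, was lower on PUCL@CNT1 in both media (0.445-fold in differentiation and 0.487-fold in maintenance medium, adjusted p 0.203). Ccnd1, cyclin D1, chosen after its values were seen, stood in the other direction, with 24679 and 12271 counts on PUCL@CNT1 and PUCL in differentiation medium, against 16467 and 18766 counts in maintenance medium. Its highest library was thus that of the 8 genes.

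In the Bcl-2 family and caspases (20 tested of 25), which carry out or block cell death, 11 of 20 (55%) were highest in the PUCL@CNT1 differentiation library, and 5 were higher and 1 lower there than on PUCL by the size rule, against 15.2% and 15.6% of all genes. Among the 5 higher, Xiap (10 against 0 counts) and Hrk (25 against 0) were near the floor. These genes were picked after their values were seen. Median log2 ratios were 0.34 for medium on PUCL@CNT1 and 0.33 for platform in differentiation medium. No gene passed for either term in edgeR, DESeq2 or limma-voom. At an unadjusted edgeR p under 0.05 there was 1 for each term, against 12.1% of all genes for medium and 6.95% for platform. Endog, a mitochondrial endonuclease, had 94 and 28 counts on PUCL@CNT1 and PUCL in differentiation medium, against 32 and 8 counts in maintenance medium (adjusted p 0.919 for medium and 1.00 for platform). Mcl1, which opposes Bax and is bound by Puma, was chosen after its values were seen. It had 1224 and 306 counts on PUCL@CNT1 and PUCL in differentiation medium, against 516 and 525 counts in maintenance medium, so a survival gene shared the highest library with the pro-death genes Bbc3 and Bax.

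**Figure D4:**
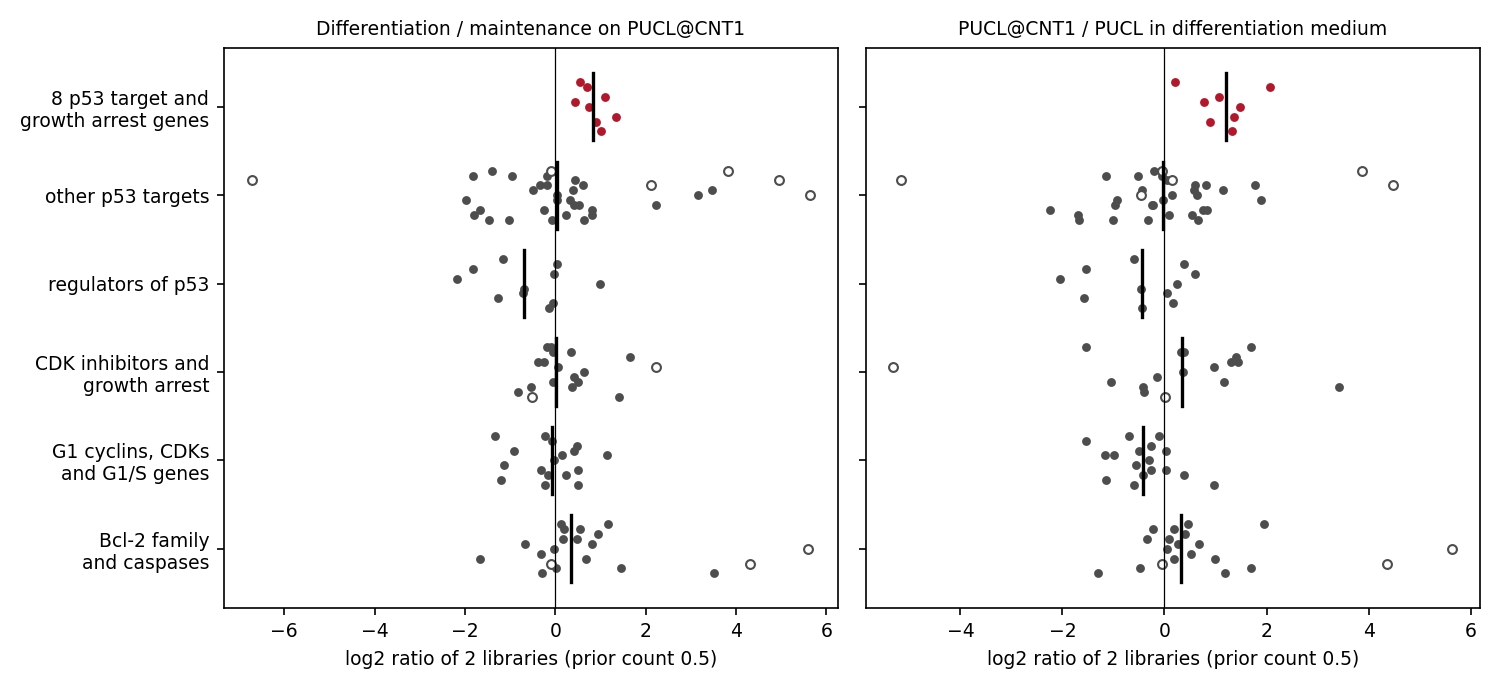
Log2 ratio of 2 libraries for each tested gene of the 8 genes (red) and of 5 wider lists (grey; open circles had 0 counts in at least 1 library), for medium on PUCL@CNT1 (left) and platform in differentiation medium (right); black lines are list medians and vertical positions within a list carry no value. The 8 genes lie above 0 in both panels (medians 0.83 and 1.2), while other p53 targets spread to both sides (medians 0.04 and -0.02).

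Likeness of profile was measured as the Euclidean distance between log2 levels over the 4 libraries, each centred on its mean. Among the 8 genes, Cdkn1a and Bbc3 were each other's nearest (0.31), and Cdkn1a was also nearest to Ccng1 (0.31) and Gadd45a (0.49). Gadd45a was nearest to Mdm2 (0.49) and Bax (0.50), while Btg2 (0.74, to Mdm2) and Phlda3 (0.79, to Bbc3) stood farthest from the others. Over the 6204 genes with a mean of 100 or more counts, the 3 nearest to Cdkn1a were Htatsf1 (0.18), Kirrel3 (0.18) and Slc31a1 (0.19), and the 3 nearest to Ccng1 were St6gal1 (0.11), Aldh4a1 (0.12) and Eif2ak2 (0.17). These distances describe 4 libraries and were given no test.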

How the data were processed

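RNA was measured in 4 libraries, 1 per platform and medium. The authors deposited 1 table of unnormalized read counts by symbol for each library; Bowtie2, bedtools and rn6 are named in the submitters' processing notes; versions, annotation, strand setting and duplicate handling are not given in the sources used here, so overlapping and antisense genes could not be told apart. Per the labels' protocols, 500 ng of total RNA went into each Lexogen QuantSeq library. Entries of 1 symbol were summed (17048 entries, 16881 symbols). A gene was tested if any library held 10 counts of it (10516 genes), in edgeR 4.0.16 (R 4.3.3; quasi-likelihood F test, TMM, platform and medium as additive terms, Benjamini-Hochberg over all genes tested, threshold 0.05). The fit had 1 residual and 87.2 prior degrees of freedom, so each p-value rests mostly on other genes' spread; a standard error is the fitted log2 divided by the root of F. Nothing says that the libraries came from separate cultures, so p-values measure only the spread between these libraries.

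Pairs of libraries were described by TMM-scaled ratios (prior count 0.5) with exact (Clopper-Pearson) 95% binomial intervals in SciPy 1.17.1; without molecular identifiers these cover counting error only. A floor of 3 counts was used for bounds, 0.451 to 0.48 CPM per library. Named genes were the 8 members, Mdm4, every listed pathway gene past the edgeR threshold, and up to 3 per list past the size rule in 1 direction on both platforms or in both media. Members, lists and rules were chosen with earlier results of these data known. Of the listed genes, 1 (Cop1) was found under an older symbol, Rfwd2. A further listed gene is not reported here and was left out of its list. The edgeR script was tested on simulated data. Alternatives were RLE factors, total counts, other filters, DESeq2 1.42.0, limma-voom (limma 3.58.1), ribosomal RNA entries removed, the other term left out, each library left out, another prior count and a looser size rule.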

Additional observations from a re-analysis of the deposited data

Results flagged for a closer look

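For 3 of the 8 genes the same contrast ran in opposite directions on the 2 platforms, with 1 library behind each level. These differences were not tested. Of the 10516 genes tested, 5162 had a medium ratio above 0 on PUCL@CNT1, 5451 on PUCL and 3113 on both. Opposite directions were thus common among all genes, and the 3 genes are not set apart by them. The log2 medium ratio was higher on PUCL@CNT1 than on PUCL by 1.75 for Phlda3 (0.70 on PUCL@CNT1 and -1.05 on PUCL), by 1.69 for Mdm2 (1.34 and -0.34) and by 1.08 for Btg2 (0.43 and -0.65). For Mdm2 and Btg2 the platform ratio changed sign between media as well (1.37 in differentiation and -0.31 in maintenance medium for Mdm2, 0.77 and -0.31 for Btg2), which is the same difference seen from the other side. No group had the 4 libraries that a check for outlying libraries needs.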

How the results depend on the processing

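No paired analysis was possible because each group was 1 library and the labels give no replicate numbers. The count of genes past the edgeR threshold for medium was 296, against 141 with a mean of 100 or more counts, 170 in DESeq2, 176 with platform left out, and 25 to 263 with a library and platform left out. The share of these that were higher in differentiation medium was 63.9%; it was 53.3% under total counts, 45.2% without PUCL@CNT1 in differentiation medium and 88.6% without PUCL in maintenance medium. For platform it was 48 (45.8% higher on PUCL@CNT1, against 33.3% under RLE factors, 60.5% in DESeq2, 57.5% in limma-voom, 53.3% with ribosomal RNA removed and 14.8% without PUCL@CNT1 in differentiation medium), against 18 under RLE factors, 28 under total counts, 25 without a filter, 0 with a mean of 100 or more counts (541 at an unadjusted p under 0.05), 87 in limma-voom, 0 with medium left out (388 unadjusted), and 0 to 27 with a library and medium left out. Of the 8 genes, 2 passed for medium; 1 did under RLE factors, total counts, no filter, a mean of 100 or more counts, DESeq2 and ribosomal RNA removal, 0 with platform left out, and 0 to 3 with a library left out (3 without PUCL in differentiation medium, where Gadd45a was added). For platform 2 passed; 1 did under RLE factors, total counts and no filter, 0 with a mean of 100 or more counts or medium left out, and 0 to 1 with a library left out.

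With the looser size rule (1.5-fold, bound beyond 1.2-fold) 6 of 8 genes in place of 3 were higher for medium on PUCL@CNT1, 1 in place of 0 higher and 2 in place of 1 lower for medium on PUCL, and 3 in place of 0 higher for platform in maintenance medium. The share of all genes past the looser rule was not counted. These counts therefore show only how the calls depend on the rule. All 8 were highest in the PUCL@CNT1 differentiation library also under total counts, RLE factors and ribosomal RNA removal, alternatives chosen after seeing the data. Total counts moved the median of all genes for medium on PUCL@CNT1 to -0.12, and of 128 pair ratios under other settings 127 stayed within their counting interval (Cdkn1a for medium on PUCL@CNT1 was 0.92 under total counts, which ended its size call).

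Fitted log2 values changed sign as follows; the cause was not tested. The medium value of Phlda3 (-0.16) was 0.13 in limma-voom, 0.16 with platform left out, and -1.23 to 0.85 with a library left out. With a library left out, medium values spanned -0.51 to 0.27 for Btg2, -0.39 to 1.09 for Bbc3, -0.20 to 1.18 for Mdm2 and -0.0154 to 1.32 for Cdkn1a; platform values spanned -0.12 to 0.41 for Bax, -0.072 to 0.57 for Btg2 and -0.14 to 1.19 for Mdm2. Single libraries limit every pair to counting error.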
